A study of Mus musculus with 9 samples.

Results

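The genes described here code for 34 enzymes and enzyme subunits of serine synthesis, one-carbon (folate and methionine) metabolism and nucleotide synthesis. They were chosen by name, from textbook pathway membership, with earlier results of these data known. All 34 were found among the 49671 genes of the table and passed the filter on low counts. By role they comprised 3 genes of serine synthesis, 7 of the folate cycle, 5 of the methionine cycle, 2 that make phosphoribosyl pyrophosphate (PRPP), 6 of inosine monophosphate (IMP) synthesis, 4 of the GMP and AMP branches, 5 of pyrimidine synthesis and 2 nucleoside diphosphate kinases.

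Serine is built from a glycolytic intermediate, and its side-chain carbon is passed to tetrahydrofolate as a one-carbon unit. Mitochondrial folate enzymes turn that unit into formate, which cytosolic folate enzymes use to build the purine ring and thymidylate, and which also feeds the methionine cycle and so methylation. In activated T cells this pathway is known for its induction as cells leave quiescence and begin to grow and divide, when purine and pyrimidine rings are made anew.

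RNA was sequenced from splenic CD3+ T cells, isolated on enrichment columns from female F1 mice (mus x cast). Their mothers were C57BL/6 and carried 1 deleted Xist allele, their fathers were castaneus, and X inactivation is skewed in such offspring. Inhibitor cells spent 48 hours in culture with anti-CD3 bound to the plate (1 µg/ml), anti-CD28 in solution (10 µg/ml) and IMD-0354 (2.5 µM), a small molecule that inhibits IKK-beta, the kinase that releases NF-kB. Stimulated cells had the same culture without IMD-0354, and unstimulated cells went into TRIzol straight after isolation, with n = 3 libraries in each of the 3 groups. Neither a vehicle, nor cultured cells without stimulation, nor an age of the animals is named in the labels, so that stimulation and culture cannot be told apart. The labels call the libraries biological replicates without naming separate animals, and the p-values speak only of the spread between libraries, part of which may be technical.

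Total read counts were 34009988 to 56221174 per library, and TMM scaling factors were 0.925 to 1.122. Levels are given as CPM, read counts scaled to a common library size, and describe a share of the RNA and not an amount per cell. Inhibitor library 1 stood apart, with 30106 genes that had any count, where the other 8 libraries had 20547 to 23223 such genes. The 17 T cell markers summed to 3379.8 to 3479 CPM in inhibitor cells, 3553 to 3694 CPM in stimulated cells and 2917 to 4550.2 CPM in unstimulated cells. The 14 B cell markers summed to 159.6 to 168 CPM in inhibitor cells, 84.3 to 93.3 CPM in stimulated cells and 1061 to 3085 CPM in unstimulated cells. The 18 myeloid and dendritic markers summed to 79.3 to 98.4 CPM in inhibitor cells, 36.0 to 40.1 CPM in stimulated cells, where Clec9a, Siglech, Xcr1, C1qa and C1qb were at 0, and 1219 to 3113 CPM in unstimulated cells. The unstimulated cells thus carried far more B cell and myeloid marker RNA. The 8 NK cell markers summed to 33.4 to 43.2 CPM in inhibitor cells, 116 to 226 CPM in stimulated cells and 412 to 499 CPM in unstimulated cells, and the 12 erythroid and platelet markers to 8.14 to 19.2 CPM in inhibitor cells, 5.86 to 9.72 CPM in stimulated cells and 61.0 to 839.7 CPM in unstimulated cells. The 7 proliferation genes summed to 487 to 791 CPM in inhibitor cells, 2676 to 2765 CPM in stimulated cells and 267 to 865 CPM in unstimulated cells, and all 7 were higher in stimulated than in unstimulated cells and lower in inhibitor than in stimulated cells. These levels moved with the results that follow, and their part in them was not tested. In bulk RNA, fewer cells of a type and less RNA per cell cannot be told apart.

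Most of the pathway was higher in stimulated than in unstimulated cells. A gene is said to rise or fall where edgeR's quasi-likelihood test gave a Benjamini-Hochberg adjusted p under 0.05 over 18374 genes. By that rule 29 of the 34 genes rose and 2 fell (Mat2b and Ctps2), where 32.0% of all genes tested rose and 34% fell. Their median log2 fold change was 1.77, against -0.05 over all genes, and 26 rose by at least 2-fold, a size reached by 19.5% of all genes, while 1 (Ctps2) fell by as much (all genes, 23.2%). The stimulated and unstimulated libraries did not overlap for 33 of the 34 genes, against 72.9% of all genes tested. The test was passed in either direction by 66.0% of all genes.

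With IMD-0354 the same pathway was lower than in stimulated cells without it. Of the 34 genes 26 fell and 1 rose (Adss), where 22.8% of all genes fell and 21.7% rose. The median log2 fold change of the 34 genes was -0.68, against 0.03 over all genes. A fall of at least 2-fold was seen for 8 genes (all genes, 10.8%), and the 1 gene that rose stayed under a 2-fold rise, which 9.31% of all genes reached. The inhibitor and stimulated libraries did not overlap for 30 genes, against 57.5% of all genes tested, and 44.5% of all genes passed the test in either direction.

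Inhibitor cells still stood above unstimulated cells for most of the pathway. In that comparison 27 genes rose and 4 fell (Mthfd2l, Mat2b, Prps2 and Ctps2), where 26.3% of all genes rose and 26.1% fell. The median was 0.96, against -0.001 over all genes, and 31 of the 34 genes had groups that did not overlap, against 59.8% of all genes tested. Of all genes 52.4% passed the test in either direction. The 3 comparisons share their libraries, so their values are set side by side and no relation between them was computed.

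The 34 genes together took 0.330%, 0.321% and 0.347% of all counts in inhibitor cells, 0.501%, 0.513% and 0.541% in stimulated cells and 0.159%, 0.187% and 0.167% in unstimulated cells. Every inhibitor library thus lay between the stimulated and the unstimulated libraries. Folate cycle genes took the largest part in inhibitor and stimulated cells, with 0.0933% ± 0.00421 of all counts in inhibitor cells, 0.134% ± 0.00808 in stimulated cells and 0.0251% ± 0.00376 in unstimulated cells (SD, n = 3 each). Serine synthesis, with only 3 genes, took 0.0374% ± 0.00176 in inhibitor cells, 0.0818% ± 0.00338 in stimulated cells and 0.00635% ± 0.00059 in unstimulated cells. Without inhibitor library 1 the counts were 1 higher and 26 lower against stimulated cells, and 27 higher and 4 lower against unstimulated cells. The 1 gene called higher was then Mat2b (edgeR adjusted p = 0.0237) and no longer Adss (0.0597). Without unstimulated library 2, which had the highest proliferation sum of its group, 29 genes rose and 2 fell in stimulated cells.

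**Figure D1:**
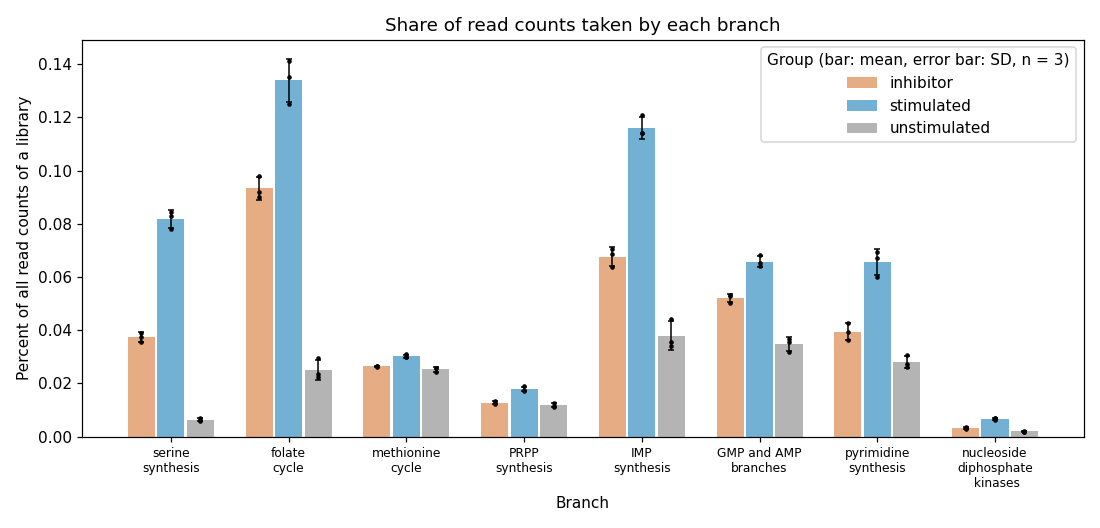
Percent of all read counts in a library taken by each of the 8 branches (bars, means over 3 libraries; error bars, SD; points, single libraries) in inhibitor, stimulated and unstimulated cells. Stimulated cells have the highest bar in every branch, and the serine synthesis, folate cycle and IMP synthesis branches show the widest gaps, with 0.0818% in stimulated against 0.00635% in unstimulated cells for serine synthesis.

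Serine synthesis rose in stimulated cells as a whole, by 3.07 to 4.48 on the log2 scale, and fell in inhibitor against stimulated cells, with log2 fold changes of -1.52 to -1.12. Phgdh (ENSMUSG00000053398; GRCm38 chromosome 3, 98313170 to 98339990, minus strand) codes for the dehydrogenase that commits 3-phosphoglycerate to serine. It stood at 108, 121 and 132 CPM in inhibitor cells, at 261, 262 and 261 CPM in stimulated cells and at 24.7, 23.8 and 24.4 CPM in unstimulated cells. Psat1 (ENSMUSG00000024640; chromosome 19, 15904678 to 15947337, minus strand), the aminotransferase of the next step, stood at 206, 215 and 241 CPM in inhibitor cells, at 508, 484 and 529.8 CPM in stimulated cells and at 21.4, 26.9 and 19.8 CPM in unstimulated cells. Psph (ENSMUSG00000029446; chromosome 5, 129765558 to 129787449, minus strand), the phosphatase that releases serine, stood at 32.6, 35.1 and 39.5 CPM in inhibitor cells, at 104, 96.2 and 108 CPM in stimulated cells and at 12.8, 11.9 and 12.0 CPM in unstimulated cells. For all 3 genes every stimulated library was above every inhibitor library, and every inhibitor library above every unstimulated one.

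Phgdh rose by a log2 fold change of 3.43 ± 0.09 in stimulated over unstimulated cells (approximate SE; edgeR adjusted p = 2.6e-09), and its inhibitor over stimulated value was -1.12 ± 0.08 (adjusted p = 4.8e-06). Psat1 had the largest rise of the branch, 4.48 ± 0.13 (adjusted p = 6e-09), and -1.20 ± 0.11 with the inhibitor (adjusted p = 2.9e-05). Psph had the largest fall with the inhibitor of all 34 genes, -1.52 ± 0.10 (adjusted p = 2.8e-06), after 3.07 ± 0.10 in stimulated over unstimulated cells (adjusted p = 1.5e-08). In inhibitor over unstimulated cells the log2 values were 2.31 for Phgdh, 3.28 for Psat1 and 1.55 for Psph, all called. Psph shares 452 exonic bases with Cct6a on the opposite strand, 10.4% of its exonic length. Cct6a stood at 262 to 286 CPM in inhibitor cells, 346 to 379.8 CPM in stimulated cells and 95.6 to 114 CPM in unstimulated cells, and the strand setting of the counting is not given in the sources used here, so reads of the shared bases cannot be told apart.

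In the folate cycle 6 of 7 genes rose in stimulated cells, with a median log2 fold change of 3.20 that the highest of them, Aldh1l2, does not set, and 4 of 7 fell with the inhibitor, with a median of -0.47. The serine hydroxymethyltransferases Shmt1 (cytosolic) and Shmt2 (mitochondrial) move the carbon of serine to tetrahydrofolate and leave glycine. Shmt2 (ENSMUSG00000025403; chromosome 10, 127517123 to 127522444, minus strand) stood at 273, 305 and 330.5 CPM in inhibitor cells, at 474, 533 and 537 CPM in stimulated cells and at 53.4, 61.8 and 52.7 CPM in unstimulated cells. Shmt1 (ENSMUSG00000020534; chromosome 11, 60788104 to 60811718, minus strand) stood at 27.5, 28.9 and 35.5 CPM in inhibitor cells, at 73.7, 84.0 and 93.2 CPM in stimulated cells and at 5.24, 5.10 and 4.52 CPM in unstimulated cells. Stimulated libraries were highest and unstimulated libraries lowest for both genes, with no overlap. Shmt1 had the larger log2 fold changes of the pair, 4.08 ± 0.15 in stimulated over unstimulated cells (edgeR adjusted p = 2e-08) and -1.45 ± 0.13 in inhibitor over stimulated cells (adjusted p = 2.1e-05). For Shmt2 they were 3.20 ± 0.11 (adjusted p = 1.5e-08) and -0.76 ± 0.10 (adjusted p = 0.00019). Per kilobase of exon, the mitochondrial gene Shmt2 was still the more abundant, with a level of 166 CPM per kb in stimulated cells, where Shmt1 had 21.5 CPM per kb.

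Mthfd2, the mitochondrial methylenetetrahydrofolate dehydrogenase, stood at 234, 272 and 301 CPM in inhibitor cells, at 323, 363 and 397 CPM in stimulated cells and at 28.4, 28.8 and 26.0 CPM in unstimulated cells. Mthfd1l, which releases formate in mitochondria, stood at 141, 149 and 158 CPM in inhibitor cells, at 230.4, 225 and 230.4 CPM in stimulated cells and at 64.6, 70.0 and 67.6 CPM in unstimulated cells. Mthfd1, the cytosolic enzyme that takes formate back up, stood at 126, 139 and 164 CPM in inhibitor cells, at 166, 202 and 208 CPM in stimulated cells and at 73.1, 92.5 and 57.4 CPM in unstimulated cells. None of these 3 genes had overlapping groups, but for Mthfd1 the highest inhibitor library and the lowest stimulated library were close. Mthfd2 rose by 3.70 ± 0.12 in stimulated over unstimulated cells (edgeR adjusted p = 1.3e-08), and its inhibitor over stimulated value was small, -0.42 ± 0.11 (adjusted p = 0.0098). Mthfd1l gave 1.76 ± 0.07 (adjusted p = 4.1e-08) and -0.61 ± 0.07 (adjusted p = 8.9e-05). Mthfd1 gave 1.37 ± 0.17 (adjusted p = 5.6e-05), and its inhibitor value of -0.42 ± 0.17 did not pass the test (adjusted p = 0.0655). That last p lay between 0.00178 and 0.182 over 18 alternative settings, and passed in 7 of them, among them without unstimulated library 2 (0.0246), without unstimulated library 3 (0.0298) and without inhibitor library 3 (0.0475).

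Aldh1l2 (ENSMUSG00000020256; chromosome 10, 83487450 to 83534140, minus strand), the mitochondrial formyltetrahydrofolate dehydrogenase, was at or near 0 in unstimulated cells and present in both cultured groups. It stood at 43.7, 41.2 and 43.7 CPM in inhibitor cells, at 46.2, 47.4 and 39.4 CPM in stimulated cells and at 0, 0.139 and 0 CPM in unstimulated cells, where the raw counts were 0, 6 and 0. A count of 0 there allows up to 0.0749 CPM in unstimulated library 1 and 0.0608 CPM in library 3 (3 counts, counting error only). The inhibitor and stimulated libraries overlapped, and both groups lay far above all unstimulated libraries. Its fitted log2 fold change of 9.85 ± 0.46 in stimulated over unstimulated cells (edgeR adjusted p = 9.7e-08) depends on the prior count and was 13.99 without unstimulated library 2, the only one with counts. In inhibitor over stimulated cells it was -0.05 ± 0.26 (adjusted p = 0.896). D10Wsu102e, which lies on the opposite strand and shares 1056 exonic bases with it, stood at 49.2, 57.3 and 58.2 CPM in the unstimulated libraries, the same ones in which Aldh1l2 had 0, 6 and 0 counts.

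Mthfd2l, a close relative of Mthfd2, was low in all groups and highest in unstimulated cells. It averaged 1.81 ± 0.198 CPM in inhibitor cells, 2.52 ± 0.935 CPM in stimulated cells and 3.77 ± 0.131 CPM in unstimulated cells (SD, n = 3 each). Its log2 value of -0.58 ± 0.27 in stimulated over unstimulated cells was not called (edgeR adjusted p = 0.0817), but was -0.92 and called without stimulated library 1 (adjusted p = 0.00964), and was also called under upper-quartile scaling (-0.80, adjusted p = 0.0257) and by limma voom (-0.66, adjusted p = 0.0363). In inhibitor over unstimulated cells it fell by 1.06 ± 0.28 (adjusted p = 0.00877).

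**Figure D2:**
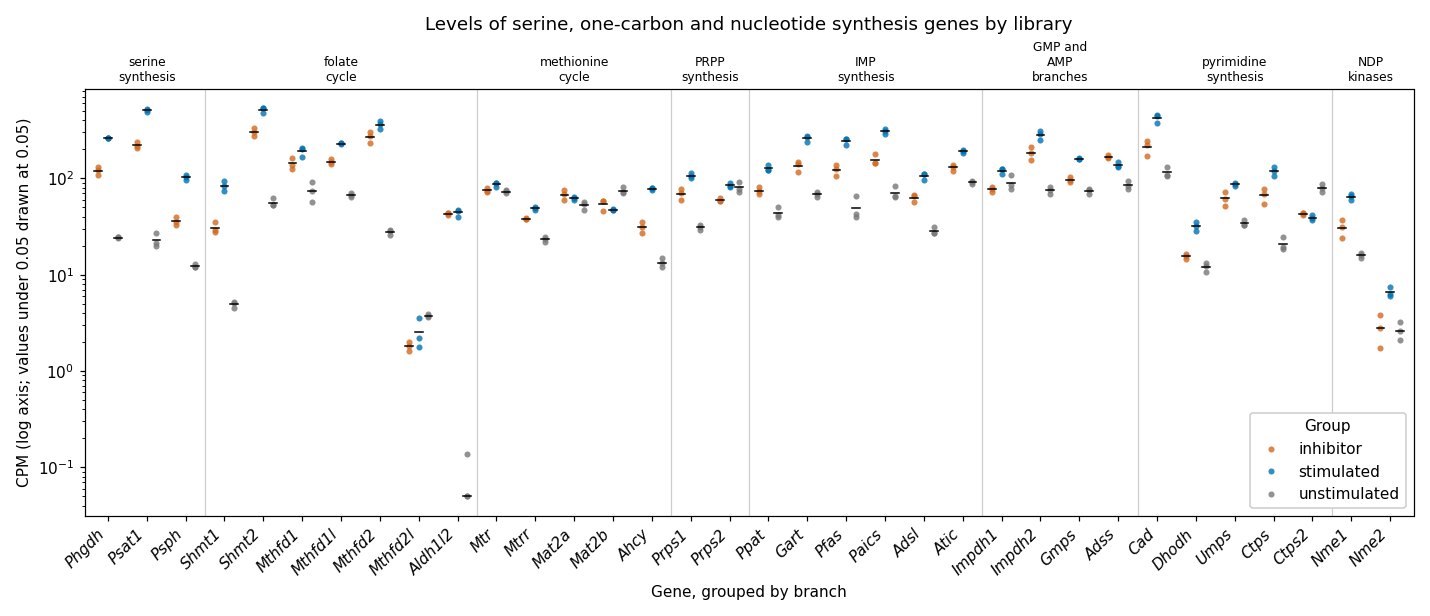
Level of each of the 34 genes in each library (points, CPM on a log axis; lines, group means; values under 0.05 are drawn at 0.05) for inhibitor, stimulated and unstimulated cells, grouped by branch. Serine synthesis and folate genes spread widest between groups, Aldh1l2 is at or near 0 in unstimulated cells, and Mat2b and Ctps2 are highest in unstimulated cells.

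The methionine cycle moved least, with median log2 fold changes of 0.25 in stimulated over unstimulated cells and -0.20 in inhibitor over stimulated cells, and Ahcy moved most among its 5 genes. Ahcy, the hydrolase that clears S-adenosylhomocysteine after methylation, stood at 27.0, 31.2 and 35.6 CPM in inhibitor cells, at 75.7, 78.6 and 78.7 CPM in stimulated cells and at 12.0, 14.9 and 13.1 CPM in unstimulated cells. Its groups were well apart, with log2 fold changes of 2.54 ± 0.13 (edgeR adjusted p = 1.4e-07) in stimulated over unstimulated cells and -1.31 ± 0.12 (adjusted p = 2.4e-05) in inhibitor over stimulated cells. Mtrr, the reductase that keeps methionine synthase active, stood at 39.0, 38.1 and 37.6 CPM in inhibitor cells, at 49.4, 47.1 and 50.0 CPM in stimulated cells and at 23.7, 22.1 and 24.8 CPM in unstimulated cells. Mtr, methionine synthase itself, stood at 71.6, 80.3 and 74.0 CPM in inhibitor cells, at 81.6, 90.0 and 88.6 CPM in stimulated cells and at 70.5, 74.8 and 73.2 CPM in unstimulated cells. The groups of Mtrr stayed apart, while inhibitor and unstimulated libraries overlapped for Mtr. Mtrr gave 1.05 ± 0.09 (adjusted p = 3.2e-06) and -0.35 ± 0.09 (adjusted p = 0.00761), and the second call was lost under upper-quartile scaling (-0.22, adjusted p = 0.099). Mtr rose by only 0.25 ± 0.08 (adjusted p = 0.015), a call lost without unstimulated library 1 (adjusted p = 0.0538), stimulated library 2 (0.0706) or stimulated library 3 (0.0505) and with no filter on low counts (0.0838). The rise of Mtr was smaller still and not called under upper-quartile scaling (0.03, adjusted p = 0.737) and with a minimum of 10 CPM (0.06, adjusted p = 0.437).

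Mat2a and Mat2b code for the catalytic and the regulatory subunit of the enzyme that makes S-adenosylmethionine. Mat2a stood at 59.3, 68.6 and 75.4 CPM in inhibitor cells, at 59.6, 62.4 and 63.8 CPM in stimulated cells and at 57.3, 46.6 and 54.1 CPM in unstimulated cells. Mat2b stood at 45.5, 58.3 and 58.7 CPM in inhibitor cells, at 47.1, 46.4 and 48.0 CPM in stimulated cells and at 72.1, 70.7 and 80.7 CPM in unstimulated cells. Inhibitor and stimulated libraries overlapped for both genes, and unstimulated libraries were lowest for Mat2a and highest for Mat2b. Mat2b fell by 0.66 ± 0.11 in stimulated against unstimulated cells (edgeR adjusted p = 0.00039), where Mat2a gave 0.23 ± 0.11 and was not called (adjusted p = 0.0836). In inhibitor over unstimulated cells Mat2a gave 0.36 ± 0.11 (adjusted p = 0.0176), a call lost without unstimulated library 2 (adjusted p = 0.0595), inhibitor library 2 (0.059) or inhibitor library 3 (0.0815), under upper-quartile scaling (0.27, adjusted p = 0.0615) and with a minimum of 10 CPM (0.21, adjusted p = 0.0696). In inhibitor over stimulated cells neither was called, at 0.13 ± 0.11 for Mat2a (adjusted p = 0.359) and 0.20 ± 0.11 for Mat2b (adjusted p = 0.165). The Mat2b value was called at 0.31 without inhibitor library 1 (adjusted p = 0.0237), at 0.33 under upper-quartile scaling (0.0236) and at 0.24 with a minimum of 10 CPM (0.0434).

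Genes of this pathway are known targets of Myc, which binds the E-box CACGTG with its partner Max, and of ATF4, which binds C/EBP-ATF response elements with the core TGATGNAA. Myc stood at 285, 274 and 292 CPM in inhibitor cells, at 370.1, 424 and 352 CPM in stimulated cells and at 88.1, 89.2 and 86.8 CPM in unstimulated cells. Atf4 stood at 393, 407 and 405 CPM in inhibitor cells, at 548, 541 and 569.9 CPM in stimulated cells and at 195, 158 and 152 CPM in unstimulated cells. Both genes thus had inhibitor libraries between the other groups, with no overlap. Myc gave 2.12 ± 0.08 in stimulated over unstimulated cells (edgeR adjusted p = 3.3e-08) and -0.43 ± 0.08 in inhibitor over stimulated cells (adjusted p = 0.00174), and Atf4 gave 1.72 ± 0.10 (adjusted p = 3e-07) and -0.46 ± 0.10 (adjusted p = 0.00308).

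Upstream sequence from RefSeq (GRCm38.p6, 250 bases before a gene start) was matched for 31 of the 34 genes, and both motifs were searched on both strands. Neither motif overlapped the other in any of these windows. An E-box was found in 4 of the 31 genes, 12.9%, against 7.83% of 16455 protein-coding genes and 6.86% of all 27025 genes with such a window. The core TGATGNAA was found in 1 of the 31 genes, 3.23%, against 3.45% of protein-coding genes and 3.91% of all genes. Pfas, Dhodh and Aldh1l2, the gene with the largest rise, had no window and were not searched. For each of these 5 genes 1 window with a match is shown, since it is a place where the letters of either site occur, with the motif in capitals and the rest in lower case, 5′ to 3′ on the gene's strand. Nme1 has another annotated start, whose window (chr11:93968026-93968275, minus strand) also holds an E-box and is not printed. The starts are those of RefSeq and can differ from the gene bounds in GENCODE M21, used for the other positions. By the GENCODE bounds the E-boxes of Nme1 and Impdh2 lie inside the gene, and that of Atic overlaps the gene's start. A match is a description of the letters and was not tested as a binding site.
Atic (E-box; chr1:71556906-71557155, plus strand): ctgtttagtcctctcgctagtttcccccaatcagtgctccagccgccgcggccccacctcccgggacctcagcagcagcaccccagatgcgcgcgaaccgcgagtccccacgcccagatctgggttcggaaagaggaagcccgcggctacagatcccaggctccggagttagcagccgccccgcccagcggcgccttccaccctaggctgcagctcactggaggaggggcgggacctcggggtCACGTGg
Paics (E-box; chr5:76951052-76951301, plus strand): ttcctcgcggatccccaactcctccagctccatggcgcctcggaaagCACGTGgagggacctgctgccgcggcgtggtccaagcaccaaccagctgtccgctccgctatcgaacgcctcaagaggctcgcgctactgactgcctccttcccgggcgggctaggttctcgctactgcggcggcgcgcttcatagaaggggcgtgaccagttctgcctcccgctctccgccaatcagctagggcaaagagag
Impdh2 (E-box; chr9:108560186-108560435, plus strand): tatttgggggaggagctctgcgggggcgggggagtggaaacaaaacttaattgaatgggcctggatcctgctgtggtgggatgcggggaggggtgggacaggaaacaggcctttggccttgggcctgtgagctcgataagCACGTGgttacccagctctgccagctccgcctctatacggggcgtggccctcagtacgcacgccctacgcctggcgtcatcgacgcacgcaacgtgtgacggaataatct
Nme1 (E-box; chr11:93968273-93968522, minus strand): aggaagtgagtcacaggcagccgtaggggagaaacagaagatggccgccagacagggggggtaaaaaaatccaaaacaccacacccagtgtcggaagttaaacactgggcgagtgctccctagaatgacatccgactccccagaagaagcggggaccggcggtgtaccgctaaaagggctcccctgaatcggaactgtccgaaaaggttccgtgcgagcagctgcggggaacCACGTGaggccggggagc
Prps1 (core TGATGNAA; chrX:140456353-140456602, plus strand): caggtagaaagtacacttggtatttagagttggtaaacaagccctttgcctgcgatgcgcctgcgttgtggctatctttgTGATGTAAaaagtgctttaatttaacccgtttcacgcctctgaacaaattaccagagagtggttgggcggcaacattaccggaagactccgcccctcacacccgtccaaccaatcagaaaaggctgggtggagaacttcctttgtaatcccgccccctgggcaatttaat
All 5 of these genes rose in stimulated cells and fell with the inhibitor, as most of the 34 genes did (29 rose and 26 fell). The 4 genes with an E-box had log2 fold changes of 1.07 (Atic), 2.11 (Paics), 1.92 (Impdh2) and 2.03 (Nme1) in stimulated over unstimulated cells, against a median of 1.77 over all 34 genes.

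PRPP, the activated ribose on which purines are built and to which pyrimidine rings are joined, is made by Prps1 and Prps2, both on the X chromosome. Prps1 (ENSMUSG00000031432; chromosome X, 140456613 to 140476140, plus strand) stood at 59.1, 70.4 and 78.4 CPM in inhibitor cells, at 100.4, 105 and 113 CPM in stimulated cells and at 32.5, 31.2 and 29.2 CPM in unstimulated cells. Prps2 (ENSMUSG00000025742; chromosome X, 167346322 to 167382749, minus strand) stood at 57.5, 57.5 and 63.1 CPM in inhibitor cells, at 81.7, 83.8 and 88.7 CPM in stimulated cells and at 76.6, 72.2 and 92.3 CPM in unstimulated cells. Prps1 followed the pattern of the serine genes, whereas the stimulated and unstimulated libraries of Prps2 overlapped and its inhibitor libraries were the lowest. Prps1 gave 1.78 ± 0.11 in stimulated over unstimulated cells (edgeR adjusted p = 5.2e-07) and -0.62 ± 0.11 in inhibitor over stimulated cells (adjusted p = 0.00124). Prps2 gave 0.08 ± 0.10 (adjusted p = 0.521), with the sign turned at -0.15 under upper-quartile scaling, and -0.51 ± 0.10 with the inhibitor (adjusted p = 0.00229). Against unstimulated cells, inhibitor cells had 1.16 ± 0.11 for Prps1 (adjusted p = 1.4e-05) and -0.44 ± 0.10 for Prps2 (adjusted p = 0.0043). The counts do not separate the parental X chromosomes.

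The 6 enzymes that build IMP on PRPP moved together: all 6 rose in stimulated cells, by 1.07 to 2.31 on the log2 scale, and all 6 fell with the inhibitor, with log2 fold changes of -0.99 to -0.56. Ppat, the committed step of the pathway, stood at 74.2, 68.1 and 81.1 CPM in inhibitor cells, at 137, 123 and 123 CPM in stimulated cells and at 41.4, 50.8 and 39.7 CPM in unstimulated cells. Gart, which catalyses several early steps and uses a formyl group from folate, stood at 115, 142 and 146 CPM in inhibitor cells, at 238, 269 and 278 CPM in stimulated cells and at 63.6, 72.1 and 68.9 CPM in unstimulated cells. Pfas, which adds a nitrogen from glutamine, stood at 106, 125 and 139 CPM in inhibitor cells, at 224, 256 and 257 CPM in stimulated cells and at 42.9, 66.1 and 39.9 CPM in unstimulated cells. In each of these 3 genes the stimulated libraries were highest and the unstimulated libraries lowest, with no overlap. Paics, which closes the step before adenylosuccinate lyase, stood at 143, 143 and 179.6 CPM in inhibitor cells, at 310.3, 289 and 324 CPM in stimulated cells and at 65.4, 83.9 and 64.3 CPM in unstimulated cells. Adsl, adenylosuccinate lyase, stood at 56.4, 65.8 and 66.7 CPM in inhibitor cells, at 96.0, 112 and 112 CPM in stimulated cells and at 27.0, 27.1 and 31.3 CPM in unstimulated cells. Atic, the bifunctional enzyme that completes IMP with a further folate-borne formyl group, stood at 139, 119 and 132 CPM in inhibitor cells, at 194, 182 and 199 CPM in stimulated cells and at 88.1, 94.0 and 92.7 CPM in unstimulated cells. The order of groups was again the same, without overlap.

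Pfas had the largest rise of the IMP genes, 2.31 ± 0.19 (edgeR adjusted p = 2.8e-06), and Atic the smallest, 1.07 ± 0.08 (adjusted p = 1.4e-06). Paics gave 2.11 ± 0.13, Gart 1.94 ± 0.11, Adsl 1.90 ± 0.11 and Ppat 1.54 ± 0.11. In inhibitor over stimulated cells Pfas and Paics both gave -0.99 (± 0.18 and ± 0.13), Gart -0.96 ± 0.11, Ppat -0.78 ± 0.11, Adsl -0.76 ± 0.10 and Atic -0.56 ± 0.08, with adjusted p of at most 0.00143. Inhibitor cells had values of 0.51 to 1.31 over unstimulated cells. Unstimulated library 2 was the highest of its group for 5 of the 6 genes, all but Adsl. In that library the proliferation marker Mki67 stood at 378 CPM, against 97.2 and 46.5 CPM in unstimulated libraries 1 and 3, and its part in these levels was not tested. Without it Pfas gave 2.57 in stimulated over unstimulated cells. Ppat and Paics lie head to head on chromosome 5 and share 272 exonic bases on opposite strands. Gart shares 1014 exonic bases with Gm15964, which stood at 0.974 CPM at most in any library.

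From IMP, the GMP branch runs through Impdh1 or Impdh2 and then Gmps, and the AMP branch begins with Adss. Impdh2 stood at 155, 182 and 210.1 CPM in inhibitor cells, at 252, 289 and 309 CPM in stimulated cells and at 75.2, 80.4 and 69.5 CPM in unstimulated cells. Impdh1 stood at 71.7, 82.1 and 77.9 CPM in inhibitor cells, at 110.2, 126 and 125 CPM in stimulated cells and at 85.7, 76.7 and 109 CPM in unstimulated cells. Both isoenzymes were highest in stimulated cells, but inhibitor and unstimulated libraries overlapped for Impdh1 only. Impdh2 gave 1.92 ± 0.12 in stimulated over unstimulated cells (edgeR adjusted p = 6.4e-07) and -0.64 ± 0.12 in inhibitor over stimulated cells (adjusted p = 0.00189). Impdh1 gave 0.41 ± 0.13 (adjusted p = 0.0153) and -0.64 ± 0.13 (adjusted p = 0.0024). The rise of Impdh1 was not called without unstimulated library 1 (adjusted p = 0.0565), stimulated library 2 (0.0662) or stimulated library 3 (0.0501). Upper-quartile scaling gave 0.19 (adjusted p = 0.24) and a minimum of 10 CPM gave 0.22 (adjusted p = 0.106) for that rise, neither of them called. Gmps, GMP synthase, stood at 90.7, 95.2 and 104 CPM in inhibitor cells, at 163, 158 and 157 CPM in stimulated cells and at 69.0, 77.2 and 75.0 CPM in unstimulated cells. These groups did not overlap, with 1.11 ± 0.08 (adjusted p = 1.1e-06) in stimulated over unstimulated cells and -0.72 ± 0.08 (adjusted p = 6.4e-05) in inhibitor over stimulated cells.

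Adss, adenylosuccinate synthase, was the only one of the 34 genes to rise with the inhibitor. It stood at 175, 166 and 164 CPM in inhibitor cells, at 148, 131 and 135 CPM in stimulated cells and at 78.3, 93.9 and 83.4 CPM in unstimulated cells. All inhibitor libraries were above all stimulated ones, and these above all unstimulated ones. Under upper-quartile scaling or a minimum of 10 CPM Mat2b was called higher with the inhibitor as well. Adss rose by 0.69 ± 0.09 in stimulated over unstimulated cells (edgeR adjusted p = 5.1e-05) and by 0.29 ± 0.09 in inhibitor over stimulated cells (adjusted p = 0.0194). The second of these calls was lost without stimulated library 2 (adjusted p = 0.0911), stimulated library 3 (0.0737), inhibitor library 1 (0.0597) or inhibitor library 2 (0.0569) and with no filter on low counts (0.102).

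In pyrimidine synthesis 4 of 5 genes rose in stimulated cells and the same number fell with the inhibitor, and Ctps2 went the other way from its relative Ctps. Cad, the fusion enzyme that starts the pyrimidine ring, stood at 170, 224 and 243 CPM in inhibitor cells, at 373, 447 and 449 CPM in stimulated cells and at 108, 130.5 and 107 CPM in unstimulated cells. Dhodh, which oxidises dihydroorotate at the mitochondrial inner membrane, stood at 14.5, 15.5 and 16.5 CPM in inhibitor cells, at 28.1, 35.6 and 32.1 CPM in stimulated cells and at 10.7, 12.4 and 13.3 CPM in unstimulated cells. Umps, which makes UMP, stood at 51.9, 61.3 and 72.6 CPM in inhibitor cells, at 84.2, 88.7 and 88.1 CPM in stimulated cells and at 36.9, 32.9 and 32.7 CPM in unstimulated cells. Groups did not overlap for any of the 3, with stimulated libraries highest, and for Dhodh the inhibitor libraries lay just above the unstimulated ones. Cad gave 1.88 ± 0.14 in stimulated over unstimulated cells (edgeR adjusted p = 2e-06) and -1.0 ± 0.14 in inhibitor over stimulated cells (adjusted p = 0.00034). Dhodh gave 1.40 ± 0.13 (adjusted p = 7.5e-06) and -1.04 ± 0.13 (adjusted p = 0.00015). Umps gave 1.35 ± 0.12 (adjusted p = 5.3e-06) and -0.49 ± 0.12 (adjusted p = 0.00708). In inhibitor over unstimulated cells Dhodh had only 0.36 ± 0.13 (adjusted p = 0.0406), a call lost in 13 of 18 alternative settings.

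The CTP synthases convert UTP to CTP, and Ctps is known as the form that proliferating lymphocytes depend on. Ctps (ENSMUSG00000028633; chromosome 4, 120539868 to 120570276, minus strand) stood at 54.7, 68.4 and 76.7 CPM in inhibitor cells, at 105, 118 and 132 CPM in stimulated cells and at 19.6, 24.4 and 18.7 CPM in unstimulated cells. Ctps2 (ENSMUSG00000031360; chromosome X, 162901238 to 163032508, plus strand) stood at 43.4, 43.4 and 41.9 CPM in inhibitor cells, at 41.5, 36.9 and 38.5 CPM in stimulated cells and at 79.2, 73.0 and 87.3 CPM in unstimulated cells. Unstimulated libraries were the lowest for Ctps and the highest for Ctps2. Ctps gave 2.50 ± 0.16 in stimulated over unstimulated cells (edgeR adjusted p = 4.9e-07) and -0.83 ± 0.15 in inhibitor over stimulated cells (adjusted p = 0.0013). Ctps2 fell by 1.04 ± 0.09 in stimulated against unstimulated cells (adjusted p = 5e-06), and its inhibitor over stimulated value of 0.14 ± 0.09 was not called (adjusted p = 0.242).

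Nme1 and Nme2 are neighbouring genes for nucleoside diphosphate kinases, which make nucleoside triphosphates from diphosphates. Nme1 stood at 23.9, 30.9 and 36.7 CPM in inhibitor cells, at 68.5, 60.0 and 65.7 CPM in stimulated cells and at 15.0, 16.8 and 15.9 CPM in unstimulated cells. Its groups did not overlap, with 2.03 ± 0.15 in stimulated over unstimulated cells (edgeR adjusted p = 1.5e-06) and -1.09 ± 0.15 in inhibitor over stimulated cells (adjusted p = 0.00024). Nme2 averaged 2.78 ± 1.05 CPM in inhibitor cells, 6.59 ± 0.823 CPM in stimulated cells and 2.63 ± 0.567 CPM in unstimulated cells (SD, n = 3 each). It rose by 1.32 ± 0.29 in stimulated over unstimulated cells (adjusted p = 0.00257) and fell by 1.24 ± 0.29 in inhibitor against stimulated cells (adjusted p = 0.00641). The annotated read-through gene Gm20390 covers 573 of the 1171 exonic bases of Nme2 (48.9%) and 418 of those of Nme1 on the same strand and had 0 counts in all 9 libraries. How reads of the shared exons were assigned is not given in the sources used here, so the levels of both genes are uncertain.

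**Figure D3:**
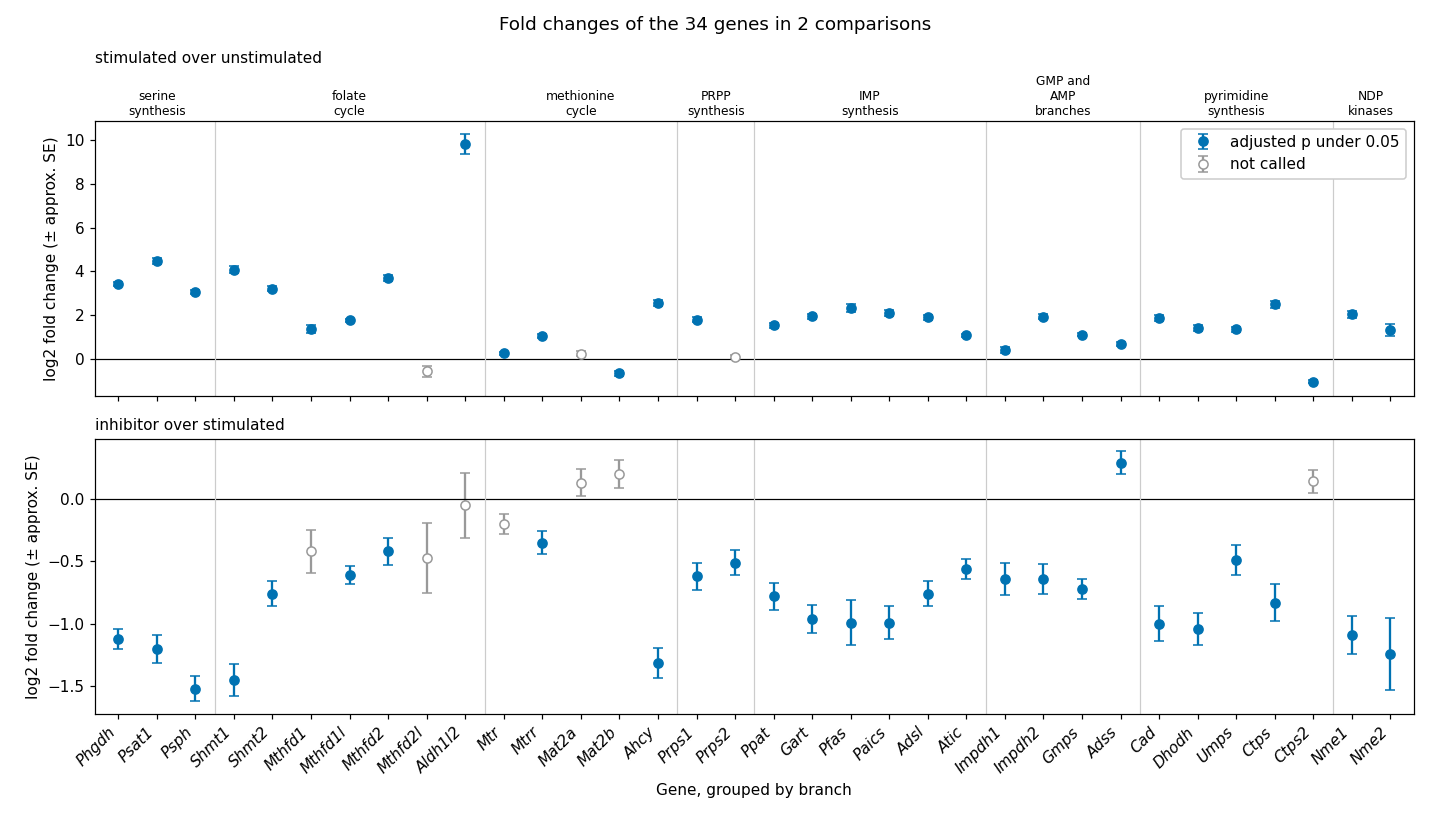
Log2 fold change of each of the 34 genes in stimulated over unstimulated cells (upper panel) and in inhibitor over stimulated cells (lower panel), with approximate SE from edgeR's quasi-likelihood test; filled points have an adjusted p under 0.05 and open points do not. In the upper panel 29 filled points lie above 0 and 2 below it, and in the lower panel 26 lie below 0 and 1, Adss, above it.

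The balance within 7 gene pairs was compared as the first gene's share of the pair's summed counts in each library, a measure that library scaling does not touch. It covers 6 pairs of isoenzymes and the 2 subunits Mat2a and Mat2b. With 3 libraries against 3 the exact permutation test (two-sided) cannot give a p below 0.1, and Benjamini-Hochberg adjustment over the 21 tests made gave 0.14 for each comparison without overlap, so no difference in share passes a threshold of 0.05. Ctps made up 55.8%, 61.2% and 64.7% of Ctps and Ctps2 counts in inhibitor cells, 71.7%, 76.3% and 77.4% in stimulated cells and 19.8%, 25.0% and 17.6% in unstimulated cells. The 3 groups did not overlap, the mean share being 54.3 points higher in stimulated than in unstimulated cells and 14.6 points lower in inhibitor than in stimulated cells (exact p = 0.1 each). Prps1 made up 50.7%, 55.0% and 55.4% of its pair in inhibitor cells, 55.1%, 55.6% and 56.0% in stimulated cells and 29.8%, 30.2% and 24.0% in unstimulated cells. Impdh2 made up 68.3%, 68.9% and 72.9% in inhibitor cells, 69.6%, 69.7% and 71.1% in stimulated cells and 46.7%, 51.2% and 38.9% in unstimulated cells. In both pairs the inhibitor and stimulated libraries overlapped, and all of them lay above every unstimulated library.

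The direction of a share depends on which gene of a pair is written first. In the other isoenzyme pairs that was the gene with the larger log2 fold change in stimulated over unstimulated cells. Shmt2, written first, rose less than Shmt1 (3.20 against 4.08). It made up 90.9%, 91.4% and 90.3% of its pair in inhibitor cells, 86.5%, 86.4% and 85.2% in stimulated cells and 91.1%, 92.4% and 92.1% in unstimulated cells. Stimulated libraries were the lowest, and inhibitor and unstimulated libraries overlapped. The mean share was 5.8 points lower in stimulated than in unstimulated cells and 4.79 points higher in inhibitor than in stimulated cells (exact p = 0.1 each). Mthfd2 made up 99.2% to 99.4% in inhibitor cells, 98.9% to 99.6% in stimulated cells and 87.4% to 88.6% in unstimulated cells. Nme1 made up 90.5% to 93.2% in inhibitor cells, 89.7% to 92.0% in stimulated cells and 82.3% to 88.9% in unstimulated cells. Mat2a made up 54.1% to 56.6% in inhibitor cells, 55.9% to 57.3% in stimulated cells and 39.7% to 44.3% in unstimulated cells. For these 3 pairs inhibitor and stimulated libraries overlapped and unstimulated libraries were lower than both. The longest open reading frames of the 6 isoenzyme pairs were 65.7% to 80.0% identical over their aligned bases, with the longest identical run at 29 bases. For the 2 subunits Mat2a and Mat2b a gapped alignment gave 60.4% over 944 aligned bases, with a longest identical run of only 9 bases. That value is no measure of kinship.

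**Figure D4:**
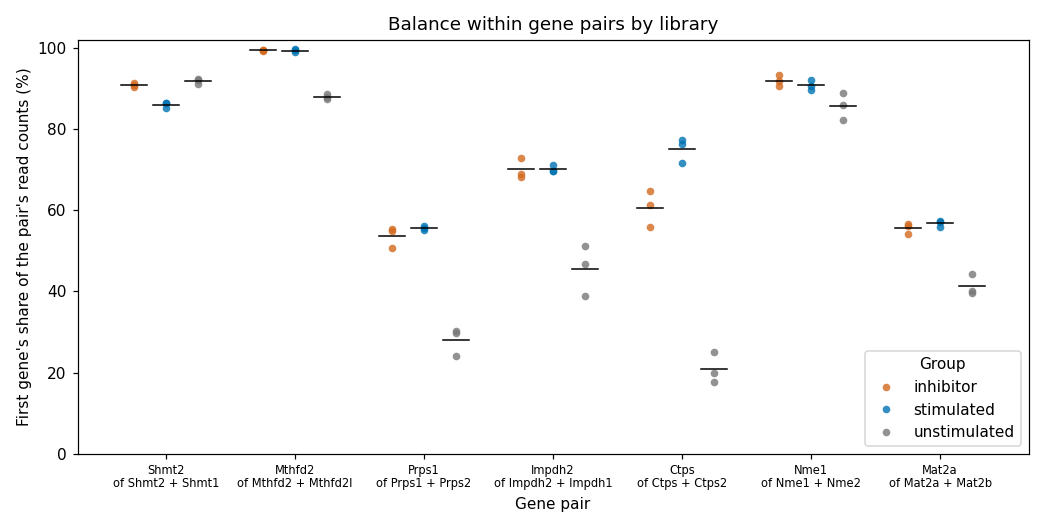
Share of the first gene in the summed read counts of each of 7 gene pairs (percent; points, single libraries; lines, means of 3) in inhibitor, stimulated and unstimulated cells. Ctps moves farthest, with 71.7% to 77.4% in stimulated cells against 17.6% to 25.0% in unstimulated cells. Shmt2, written first though Shmt1 rose more, has its lowest share in stimulated cells.

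Other genes of the same metabolism gave a more mixed picture. They came from lists that, like the enzymes above, were chosen with earlier results of these data known. Of 17 genes for deoxynucleotide synthesis, 10 rose and 5 fell in stimulated cells (median log2 fold change 1.41), and 1 rose and 11 fell with the inhibitor (median -0.91). The largest rises in stimulated cells were of Tk1 (thymidine kinase, 3.19 ± 0.59), Rrm2 (ribonucleotide reductase subunit, 2.93 ± 0.63) and Dut (dUTPase, 2.76 ± 0.34), and the largest falls of Tk2 (-1.13 ± 0.15), Dguok (-0.59 ± 0.12) and Rrm2b (-0.42 ± 0.13). Tk2 and Dguok are the mitochondrial deoxynucleoside kinases, and Rrm2b is the reductase subunit known from resting cells. With the inhibitor Rrm2 fell by 2.78 ± 0.62, Dut gave -1.86 ± 0.33 and Rrm1 -1.75 ± 0.34, and Tk2 rose by 0.45 ± 0.15 (edgeR adjusted p = 0.0313). The proliferation genes moved with this list, and their part in it was not tested.

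Of 16 tested genes that carry or break down serine and glycine, 11 rose and 3 fell in stimulated cells (median 1.44), and 3 rose and 6 fell with the inhibitor (median -0.34). Cth, which makes cysteine from cystathionine, averaged 24.3 ± 3.04 CPM in inhibitor cells, 72.4 ± 4.48 CPM in stimulated cells and 0.141 ± 0.091 CPM in unstimulated cells (SD, n = 3 each). Slc1a4, a carrier of serine and other neutral amino acids, rose by 4.82 ± 0.16 in stimulated cells, and the glycine carrier Slc6a9 by 2.95 ± 0.67. Sfxn3, a mitochondrial sideroflexin, ran against them, at 41.5 ± 4.44 CPM in inhibitor cells, 7.81 ± 0.516 CPM in stimulated cells and 50.7 ± 4.97 CPM in unstimulated cells (edgeR adjusted p = 8.9e-07 for inhibitor against stimulated and 8.6e-08 for stimulated against unstimulated). Its relative Sfxn1, a mitochondrial serine carrier, fell by 1.04 ± 0.13 with the inhibitor, as did Cth (-1.58 ± 0.18) and the glycine cleavage gene Gcsh (-0.97 ± 0.14). The amino acid carriers Slc38a2 (0.79 ± 0.10) and Slc38a1 (0.49 ± 0.09) rose with it.

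Of 9 tested genes for folate uptake and handling, 4 rose and 2 fell in stimulated cells (median 0.47), and 2 rose and 2 fell with the inhibitor (median -0.14). The counts with the inhibitor were near the shares of all genes tested, 21.7% higher and 22.8% lower. The reduced folate carrier Slc19a1 rose by 1.70 ± 0.11 in stimulated cells, the mitochondrial folate carrier Slc25a32 by 1.25 ± 0.21 and Fpgs, which traps folate in cells, by 1.24 ± 0.16, and Mthfsd fell (-0.55 ± 0.12). With the inhibitor Slc19a1 (-0.31 ± 0.10) and Fpgs (-0.49 ± 0.15) fell, whereas Mthfsd (1.44 ± 0.13) and Mthfs (0.78 ± 0.19) rose. Of 11 tested genes of methionine salvage and methyl use, a list that includes polyamine synthesis, 10 rose in stimulated cells and the other 1 was not called (median 1.13). With the inhibitor 1 of the 11 rose and 7 fell (median -0.39). Spermidine synthase Srm (2.56 ± 0.15), ornithine decarboxylase Odc1 (1.91 ± 0.14) and Mri1 (1.49 ± 0.16) rose most in stimulated cells, and with the inhibitor Odc1 (-0.98 ± 0.14), Enoph1 (-0.78 ± 0.11) and Mri1 (-0.74 ± 0.16) fell while Ahcyl2 rose (0.75 ± 0.10).

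A list of 16 tested regulators, their known targets and further kinases had 12 that rose and 2 that fell in stimulated cells (median 1.64), and 3 that rose and 9 that fell with the inhibitor (median -0.45). Asparagine synthetase Asns (4.23 ± 0.49), Chac1 (4.23 ± 0.35) and Trib3 (3.45 ± 0.21), known targets of ATF4, rose most in stimulated cells, and Max fell (-0.72 ± 0.12). With the inhibitor Asns (-1.18 ± 0.43, edgeR adjusted p = 0.0496), Trib3 (-0.56 ± 0.19) and the mitochondrial kinase Nme4 (-2.71 ± 0.24) fell, while Atf5 (1.83 ± 0.10), Max (1.00 ± 0.12) and Nme7 (0.47 ± 0.14) rose. Atf5, a relative of ATF4, averaged 108 ± 7.07 CPM in inhibitor cells and 30.5 ± 0.545 CPM in stimulated cells (SD, n = 3 each). In inhibitor over unstimulated cells the 6 lists of other genes, salvage and breakdown among them, had 47 genes that rose and 16 that fell. These lists held 17, 20, 9, 16, 11 and 16 tested genes, and of all genes tested 26.3% rose and 26.1% fell.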

How the data were processed

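Read counts per gene, deposited by the authors as 1 table of 49671 genes and 9 libraries, were used as they stand. They are whole numbers with no normalization visible in them. Per the labels' protocols, a stranded Illumina total RNA kit with ribosomal depletion was used. The submitters' processing notes name the aligner STAR 2.7.1a, featureCounts and the build mm10. Not given in the sources used here are the annotation release, the strand setting and the counting of mates. In each library 70.6% to 78.5% of the counts from 1 to 10 were even, so intervals from counts may be too narrow. Castaneus reads may map less well to the C57BL/6 assembly, which can lower counts.

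Gene identifiers were matched to GENCODE M21 on the same assembly (49412 matched; the other 259 held at most 0.0359% of a library's counts). Of the other lists, the symbols Pnp and Folr4 were not matched. Of the list for folate uptake and handling, 1 gene is not reported here and was left out of the list's counts and median. Counts were fitted with edgeR 4.0.16 in R 4.3.3 (filterByExpr, TMM, glmQLFit and glmQLFTest, two-sided) over 18374 genes and all 9 libraries, with group as the only term and 6 residual degrees of freedom. The ± after a log2 fold change is an approximate SE: the size of the change divided by the root of its F statistic. CPM per kb divides the mean CPM by exonic length. The fit was also run on simulated counts in which far fewer genes changed than were called here, and only in stimulated libraries. That run therefore did not test scaling or calling under a shift as broad as in these data. Within groups, libraries differed by a chi-square of 30 to 112 per degree of freedom, above sampling noise, and each was counted as a sample. Intervals and floors (3 counts) cover counting error only.

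The 34 genes and all lists were chosen with earlier results of these data known. Values in every library are given for genes called in at least 1 comparison with a mean of at least 10 CPM, and mean ± SD for the others. From other lists, up to 3 called genes in each direction with the largest fold change among those with a mean of at least 8 CPM are named for the comparisons of stimulated against unstimulated and inhibitor against stimulated cells. Alternatives were RLE and upper-quartile scaling, DESeq2 1.42.0, limma voom 3.58.1, no filter or a minimum of 10 CPM, fits of the compared groups only, the replicate number as a block, halved counts, and leaving out each library.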

Additional observations from a re-analysis of the deposited data

How the results depend on the processing

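Over 18 alternative settings 30 of the 34 genes in stimulated against unstimulated cells, 28 in inhibitor against stimulated cells and 29 in inhibitor against unstimulated cells kept both direction and call. Mthfd2l and Nme2 were tested in only 17 of these settings, since both lie under the minimum of 10 CPM. The count called higher with the inhibitor against stimulated cells, 1, was 2 under upper-quartile scaling, 0 without a filter on low counts, 2 with a minimum of 10 CPM, and 0 to 1 when 1 library was left out. With the minimum of 10 CPM, which tests fewer genes, 3455 genes rose and 3487 fell in stimulated against unstimulated cells, and 2934 rose and 2918 fell in inhibitor against unstimulated cells. Upper-quartile scaling moved the median of all genes to -0.27 in stimulated over unstimulated cells, against -0.05 under TMM, and to 0.16 in inhibitor over stimulated cells, against 0.03, and without a filter on low counts the median of that comparison was 0.30. Signs turned for values near 0 that were not called. For Prps2 in stimulated over unstimulated cells they were -0.15 (upper-quartile) and -0.11 (minimum of 10 CPM), and for Aldh1l2 in inhibitor over stimulated cells 0.084 (upper-quartile). In inhibitor over unstimulated cells Mtr gave -0.004 with RLE factors and with DESeq2, -0.042 (upper-quartile), -0.099 (minimum of 10 CPM) and, leaving out 1 library, -0.001 (without inhibitor library 2) to 0.086. Nme2 gave -0.025 (upper-quartile), -0.06 without unstimulated library 2 and, over all libraries left out, -0.221 (without inhibitor library 3) to 0.33. In inhibitor over stimulated cells, leaving out 1 library gave share differences of -0.155 to 0.168 points for Mthfd2 and Mthfd2l and -1.5 to 0.806 points for Impdh2 and Impdh1. The causes of these changes were not tested.

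With the replicate number as a block, 29 genes were called higher and 2 lower in stimulated against unstimulated cells, 1 and 26 in inhibitor against stimulated cells, and 27 and 4 in inhibitor against unstimulated cells, the same counts as without it. Stimulated and inhibitor libraries of the same number had correlated deviations of 0.144, 0.107 and 0.078, against -0.105 to 0.026 for different numbers. Between unstimulated and cultured libraries of the same number the correlations were -0.194 to 0.005. The number was not taken as a pairing in the main fit, and whether stimulated and inhibitor libraries of the same number are related is not known.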

Other observations

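Salvage and breakdown of nucleotides, which recycle bases and nucleosides instead of building them, moved in both directions. Of 20 tested genes 9 rose and 7 fell in stimulated against unstimulated cells (median log2 fold change 0.10). In inhibitor against stimulated cells 4 rose and 8 fell (median -0.23). Of all genes tested, 32.0% rose and 34% fell in the first comparison, and 21.7% rose and 22.8% fell in the second. Movement in both directions was thus also seen over all genes. The purine salvage enzyme Hprt averaged 72.9 ± 8.01 CPM in inhibitor cells, 224 ± 12.9 CPM in stimulated cells and 46.4 ± 4.91 CPM in unstimulated cells (SD, n = 3 each). In stimulated cells Hprt rose by 2.27 ± 0.11 (approximate SE), the uridine kinase Uck2 by 1.68 ± 0.08 and Aprt by 1.67 ± 0.10. The purine-degrading enzymes Gda (-7.18 ± 0.78) and Xdh (-3.09 ± 0.19) and the ectonucleotidase Nt5e (-3.46 ± 0.15) fell. Gda averaged 0.648 ± 0.458 CPM in stimulated cells and 95.9 ± 63.0 CPM in unstimulated cells. The B cell and myeloid marker sums were also higher in unstimulated cells, and their part in these falls was not tested. With the inhibitor Nt5e averaged 27.5 ± 2.34 CPM, against 7.35 ± 0.542 CPM in stimulated cells (log2 fold change 1.90 ± 0.14, edgeR adjusted p = 7.2e-06). Uckl1 (0.91 ± 0.11) and Nt5c2 (0.55 ± 0.12) also rose with it, while Hprt (-1.62 ± 0.11), Aprt (-0.93 ± 0.10) and Ada (-0.80 ± 0.19) fell.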
